A study of Mus musculus with 10 samples.

Results

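Interferon-inducible genes and their regulators were followed across the arrays of a study of urogenital systems from mouse embryos with an altered Wnt9b gene. The group was chosen by gene symbol. It names 51 genes, and every probe set (the array's group of short probes for a transcript) whose only platform symbol is one of these was taken. This gave 85 probe sets for 48 genes, of 45037 probe sets and 18193 genes in all. Gbp4 and Isg15 are represented by 1 probe set each that carries a further symbol, so no value is given for them, and Ifi44 had no probe set with its symbol in the annotation used here. The genes were listed with the differences between the genotypes already known, and Xaf1 was among the largest rises of the series. The differences below are therefore a description of these arrays and not a test of the group.

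Urogenital systems were dissected at embryonic day 15.5, and each array held RNA pooled from 1 to 2 of them. The 5 homozygous pools had 2 cneo alleles of Wnt9b (genotype label Wnt9bcneo/cneo). The 5 control pools have the genotype label Wnt9bcneo/+, which gives them 1 cneo allele, but they are titled WT, and nothing given here settles which holds. Both groups are of the same stage and tissue and had no treatment in the labels, the effect of cneo on the Wnt9b transcript is not stated, and the design text of the series describes another dissection that the sample labels do not match.

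Interferons are secreted proteins, and those of type I are made when a cell senses foreign or misplaced nucleic acid. Type I interferons bind a receptor of Ifnar1 and Ifnar2, and interferon gamma binds a receptor of Ifngr1 and Ifngr2. Kinases at the receptor then activate STAT proteins. A complex that holds Stat2 and Irf9 binds a promoter motif called the interferon-stimulated response element (ISRE), and STAT dimers bind a second motif called the gamma-activated site (GAS). The genes switched on this way encode GTPases, RNA-binding antiviral proteins, the ubiquitin-like modifier Isg15 and parts of the machinery that loads peptides on MHC class I molecules.

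Promoters are shown for the 3 neighbouring guanylate-binding protein genes of chromosome 3 that were all higher in homozygous pools, for Xaf1, the member that differed most, and for Ifit3 and Rsad2, which hold the same motif and whose differences were 0.01 and -0.57. Sequences are RefSeq's for GRCm38.p6, run 5′ to 3′ on the strand of the gene, and cover 250 bases before the start and 50 after it. Capitals mark matches to ISRE-like letters (GAAA, any 2 bases, GAAA again) or the GAS-like letters TTCNNNGAA on either strand. Overlapping matches of the same motif were counted separately.
Gbp2, chr3:142620413-142620712, plus strand: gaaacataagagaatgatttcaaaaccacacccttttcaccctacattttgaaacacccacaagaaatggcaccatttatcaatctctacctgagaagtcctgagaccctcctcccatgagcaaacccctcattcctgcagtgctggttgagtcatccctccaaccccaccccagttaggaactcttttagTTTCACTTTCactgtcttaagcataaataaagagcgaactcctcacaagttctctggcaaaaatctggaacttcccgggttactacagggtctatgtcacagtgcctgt
Gbp3, chr3:142559794-142560093, plus strand: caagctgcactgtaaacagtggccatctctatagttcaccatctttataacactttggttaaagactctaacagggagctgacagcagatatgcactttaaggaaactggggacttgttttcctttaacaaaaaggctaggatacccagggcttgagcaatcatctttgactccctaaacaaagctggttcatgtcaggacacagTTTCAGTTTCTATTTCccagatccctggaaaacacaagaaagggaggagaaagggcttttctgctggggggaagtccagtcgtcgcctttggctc
Gbp7, chr3:142530086-142530385, plus strand: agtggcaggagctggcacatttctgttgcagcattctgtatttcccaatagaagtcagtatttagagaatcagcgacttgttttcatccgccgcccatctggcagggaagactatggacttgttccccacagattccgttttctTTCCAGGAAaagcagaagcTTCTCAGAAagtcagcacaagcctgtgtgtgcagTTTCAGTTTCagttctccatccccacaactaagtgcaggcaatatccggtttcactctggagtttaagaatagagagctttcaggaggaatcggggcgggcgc
Xaf1, chr11:72301379-72301678, plus strand: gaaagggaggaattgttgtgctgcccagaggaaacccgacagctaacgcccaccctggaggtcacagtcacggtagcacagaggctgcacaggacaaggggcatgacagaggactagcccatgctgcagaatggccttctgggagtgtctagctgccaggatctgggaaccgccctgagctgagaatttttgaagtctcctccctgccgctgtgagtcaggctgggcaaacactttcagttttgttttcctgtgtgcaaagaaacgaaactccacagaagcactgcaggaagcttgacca
Ifit3, chr19:34583279-34583578, plus strand: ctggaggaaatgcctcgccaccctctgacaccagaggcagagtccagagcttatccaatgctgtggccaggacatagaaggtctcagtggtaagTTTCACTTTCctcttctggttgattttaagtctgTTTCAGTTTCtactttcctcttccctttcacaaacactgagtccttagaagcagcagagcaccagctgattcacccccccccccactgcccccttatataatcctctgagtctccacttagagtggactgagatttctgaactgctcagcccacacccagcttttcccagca
Rsad2, chr12:26456403-26456702, minus strand: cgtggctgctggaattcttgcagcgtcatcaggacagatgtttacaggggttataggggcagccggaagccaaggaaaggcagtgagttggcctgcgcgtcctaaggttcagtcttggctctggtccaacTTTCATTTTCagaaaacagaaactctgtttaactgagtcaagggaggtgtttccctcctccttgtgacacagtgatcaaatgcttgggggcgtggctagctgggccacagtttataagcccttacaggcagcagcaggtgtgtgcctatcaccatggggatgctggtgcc

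The ISRE-like letters began 59 bases before the start of Gbp2 (TTTCACTTTC), 53 bases before that of Gbp7 (TTTCAGTTTC) and, in 2 overlapping matches, 45 and 39 bases before that of Gbp3. A second annotated start of Gbp3 had no match. Gbp7 also held 2 GAS-like matches. The window of Xaf1 held neither set of letters, which says only that these letters are not in this window. Promoters were listed for 41 of the 48 genes, and 17 of these (41.5%) held an ISRE-like match in at least 1 window, against 3.99% of 27025 genes and 3.44% of all 32851 promoters. GAS-like letters stood in 16 of the 41 (39.0%), against 9.55% of all genes and 8.30% of all promoters. All 5 GTPase genes with a listed promoter held the ISRE-like letters, as did 8 of 14 antiviral effector genes, whereas none of the 4 receptor genes or the 5 antigen processing genes did. Among the 41 genes, the median log2 difference (homozygous minus control, as throughout) was 0.06 over the 17 with an ISRE-like match. It was 0.11 over the 24 without, and 10 and 16 genes, in this order, were higher. The 7 members without a listed promoter are outside this split. Of those, Dhx58, Gbp6, Iigp1, Mx1, Usp18 and Ifi27 were higher in homozygous pools and Mx2 was at the floor. Whether the letters go with the differences was not tested.

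Values below are the deposited linear intensities, in the order of pools 1 to 5. Differences are on the log2 scale after values under 16 were set to 16 (the floor). Wnt9b itself read 103, 179, 47.8, 107 and 201 in homozygous pools and 135, 121, 143, 126 and 140 in control pools, so the groups overlapped. Homozygous pools 3, 4 and 5 had high Xist, at 13.75 to 14.27 (log2), against 6.07 or less elsewhere. No control pool had high Xist (5.13 to 5.71), so Xist level and genotype cannot be fully told apart. The ratio of actin's 3′ probe set to its middle one rises as RNA is degraded. It reached 97.7 for homozygous pool 5 and 94.8 for control pool 1. On the other arrays it ran from 9.87 to 33.1, so the 3′ signal was well above the middle one on all 10 arrays. The share of probe sets at or under the floor was 19.9% to 21.1% for the homozygous group and 22.2% to 23.03% for the control group. In dissected tissue, fewer cells of a type and less RNA per cell cannot be told apart.

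Of the 48 genes, 32 were higher and 15 lower in homozygous pools, Mx2 was at the floor on all 10 arrays, and the median log2 difference was 0.20, against 0.00 over all 18193 genes, of which 8974 were higher. Past the threshold (limma, adjusted p under 0.05 over all genes) were 2 members, Xaf1 and Gbp2, both higher. Over all genes 0.967% passed, 0.539% higher and 0.429% lower. Every homozygous pool lay above every control pool in 6 members (Xaf1, Gbp2, Gbp7, Ifi35, Ifi27 and Oasl2) and below in none, while 2.61% of all genes separated upwards and 2.10% downwards. Among the 85 member probe sets 2 passed, the same probe sets of Xaf1 and Gbp2, against 0.231% of all probe sets (0.111% higher, 0.120% lower); 8 separated upwards and 1 downwards, against 1.78% and 1.51%. Since the genes were listed with this contrast known, nothing is read from these shares. Single pools decided the number of members past the threshold. It was 0 without homozygous pool 3 (3 of all genes) or without control pool 3, 4 or 5 (3, 10 and 5 of all genes). It was 1 (Xaf1) without homozygous pool 1 or 5 or control pool 1 (11, 13 and 13 of all genes). With all pools 176 of all genes passed, so the count over all genes fell too. Without both arrays of high actin ratio 1 member passed (Xaf1; 0.126% of all genes) and 6 separated upwards (5.85% of all genes). Without the 3 pools of high Xist none passed (0.154% of all genes), 9 separated upwards (8.09% of all genes) and 5 downwards (Ifih1, Ifit2, Oas1a, Eif2ak2 and Ifi30; 6.43% of all genes).

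**Figure D1:**
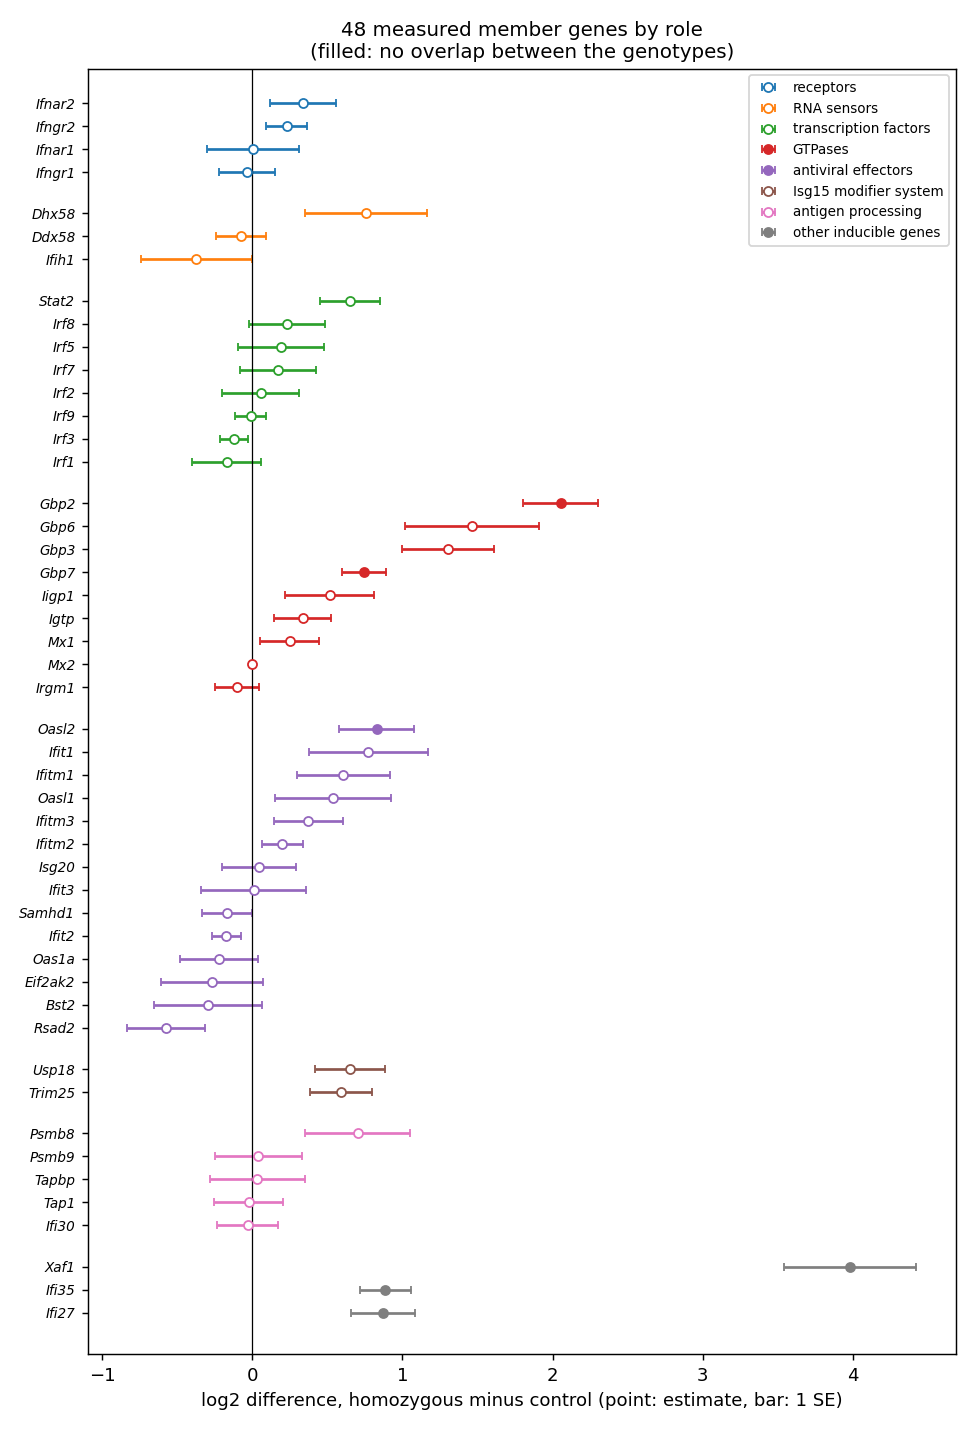
Log2 difference, homozygous minus control, of the 48 measured genes (x axis) in blocks by role (y axis); bars are 1 SE of the limma fit over 5 and 5 pools, and filled points mark the 6 genes whose groups did not overlap. Xaf1 at 3.98 and Gbp2 at 2.05 stand to the right, while the receptor genes lie between -0.03 and 0.34.

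Interferon receptor genes differed little between the genotypes. On their brightest probe sets the 4 genes ran from -0.03 to 0.34, none passed and none separated. Ifnar2, a chain of the type I receptor, read 509, 831, 826, 574 and 1074 in homozygous pools and 795, 588, 556, 540 and 476 in control pools, a log2 difference of 0.34 ± 0.22 (SE). Its other probe sets differed by 0.45 ± 0.20 (SE) and -0.17 ± 0.37 (SE). Ifngr2, a chain of the interferon gamma receptor, read 202, 205, 226, 189 and 195 in homozygous pools, against 199, 195, 191, 140 and 150 in control pools (0.23 ± 0.14, SE). In both genes the groups overlapped. Ifngr1 differed by -0.03 ± 0.19 (SE) and Ifnar1 by 0.01 ± 0.30 (SE); the intensity of Ifnar1 was lowest on both arrays of high actin ratio, at 440 in homozygous pool 5 and 361 in control pool 1.

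The sensors of viral RNA showed no common direction. Dhx58, a helicase that modulates the sensors Ddx58 and Ifih1, read 44.5, 27.9, 72.9, 59.7 and 14.2 in homozygous pools and 14.6, 23.1, 28.8, 19.1 and 30.7 in control pools (0.76 ± 0.41, SE). Homozygous pools 1, 3 and 4 lay above all control pools and pool 5 below them, and 1 value of each group was under the floor. Ifih1, the sensor of long double-stranded RNA, read 71.2, 120, 198, 217 and 228 in homozygous pools and 210, 313, 137, 213 and 159 in control pools (-0.37 ± 0.37, SE). Ddx58 differed by -0.08 ± 0.17 (SE).

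Transcription factors of the pathway showed narrow differences. Their 8 differences ran from -0.17 (Irf1) to 0.65 (Stat2) with a median of 0.11, and none passed or separated. Irf9, the DNA-binding partner of Stat2, read 158, 175, 151, 159 and 155 in homozygous pools and 142, 173, 161, 167 and 161 in control pools, a difference of -0.01 ± 0.10 (SE). Stat2 read 26.1, 35.2, 31.0, 27.9 and 42.7 in homozygous pools and 27.2, 27.0, 17.1, 15.4 and 17.6 in control pools (0.65 ± 0.20, SE), near the floor in both groups, and with a floor of 32 the difference was 0.11. Irf8, a factor of myeloid cells, differed by 0.23 ± 0.25 (SE), and Irf1, an early interferon gamma response factor, by -0.17 ± 0.23 (SE). Irf7, which drives type I interferon genes, differed by 0.17 ± 0.25 (SE), Irf3 by -0.12 ± 0.09 (SE), Irf5 by 0.19 ± 0.28 (SE) and Irf2 by 0.06 ± 0.26 (SE). Without the 3 pools of high Xist the difference of Irf1 was 0.24.

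The guanylate-binding protein genes were the family with the widest differences. These interferon gamma-inducible GTPases attack membranes around intracellular pathogens. All 4 measured members were higher in homozygous pools, with a median of 1.38, and their lowest values over the 24 alternatives of processing were 1.40 for Gbp2, 0.82 for Gbp3, 0.56 for Gbp6 and 0.49 for Gbp7. Only Gbp2 passed the threshold. Gbp2 read 347, 163, 316, 331 and 413 in homozygous pools and 75.4, 75.1, 67.6, 59.5 and 87.3 in control pools. Every homozygous pool was above every control pool, and homozygous pool 2 was the lowest of its group. The log2 means were 8.23 ± 0.51 and 6.18 ± 0.21 (SD, n = 5 each), a difference of 2.05 ± 0.25 (SE), or 4.15-fold. The name of this probe set ends in _x_at, by which the array maker marks probes that may also match other transcripts. The second Gbp2 probe set has no such mark and read 410, 186, 336, 294 and 104 in homozygous pools and 71.9, 84.2, 74.1, 104 and 129 in control pools (1.40 ± 0.37, SE), with an overlap at homozygous pool 5. The first probe set differed by 1.95 with both arrays of high actin ratio left out, and by 1.71 without the 3 pools of high Xist.

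Gbp3 read 90.1, 170, 156, 215 and 98.8 in homozygous pools and 61.4, 52.8, 44.1, 42.7 and 90.6 in control pools, a difference of 1.31 ± 0.30 (SE). Control pool 5 just exceeded homozygous pool 1. Gbp7 read 332, 382, 565, 402 and 437 in homozygous pools, against 273, 278, 230, 224 and 244 in control pools, with no overlap (0.74 ± 0.15, SE). Its second probe set differed by 0.61 ± 0.25 (SE). Gbp6, which lies on chromosome 5, read 84.2, 81.8, 117, 162 and 157 in homozygous pools and 46.6, 93.6, 35.2, 15.3 and 51.9 in control pools (1.46 ± 0.45, SE), and its second probe set separated the groups at 0.56 ± 0.17 (SE). Control pool 2 overlapped the homozygous range and control pool 4 was under the floor. Gbp3, Gbp7, Ifi27 and Rsad2 are described because their values were seen to stand out.

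Gbp7, Gbp3 and Gbp2 lie side by side on mouse chromosome 3 in GRCm38.p6, with Gbp2b between Gbp3 and Gbp2. Gbp2b differed by 0.29 ± 0.82 (SE) and was at the floor on 5 arrays. The 7 measured genes on either side that are not of this family ran from -0.35 (Pkn2) to 0.15 (Hs2st1), and none of them passed or separated. Members of this family are similar in sequence, so signal could pass between their probe sets.

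The other GTPase genes moved less. The immunity-related GTPase gene Igtp differed by 0.34 ± 0.19 (SE), Iigp1 by 0.52 ± 0.29 (SE) and Irgm1, a regulator of that family, by -0.10 ± 0.15 (SE). Igtp read 305, 324, 342, 237 and 233 in homozygous pools and 161, 221, 216, 301 and 250 in control pools, so the groups overlapped. Mx1, an antiviral dynamin-like GTPase, differed by 0.25 ± 0.19 (SE).

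**Figure D2:**
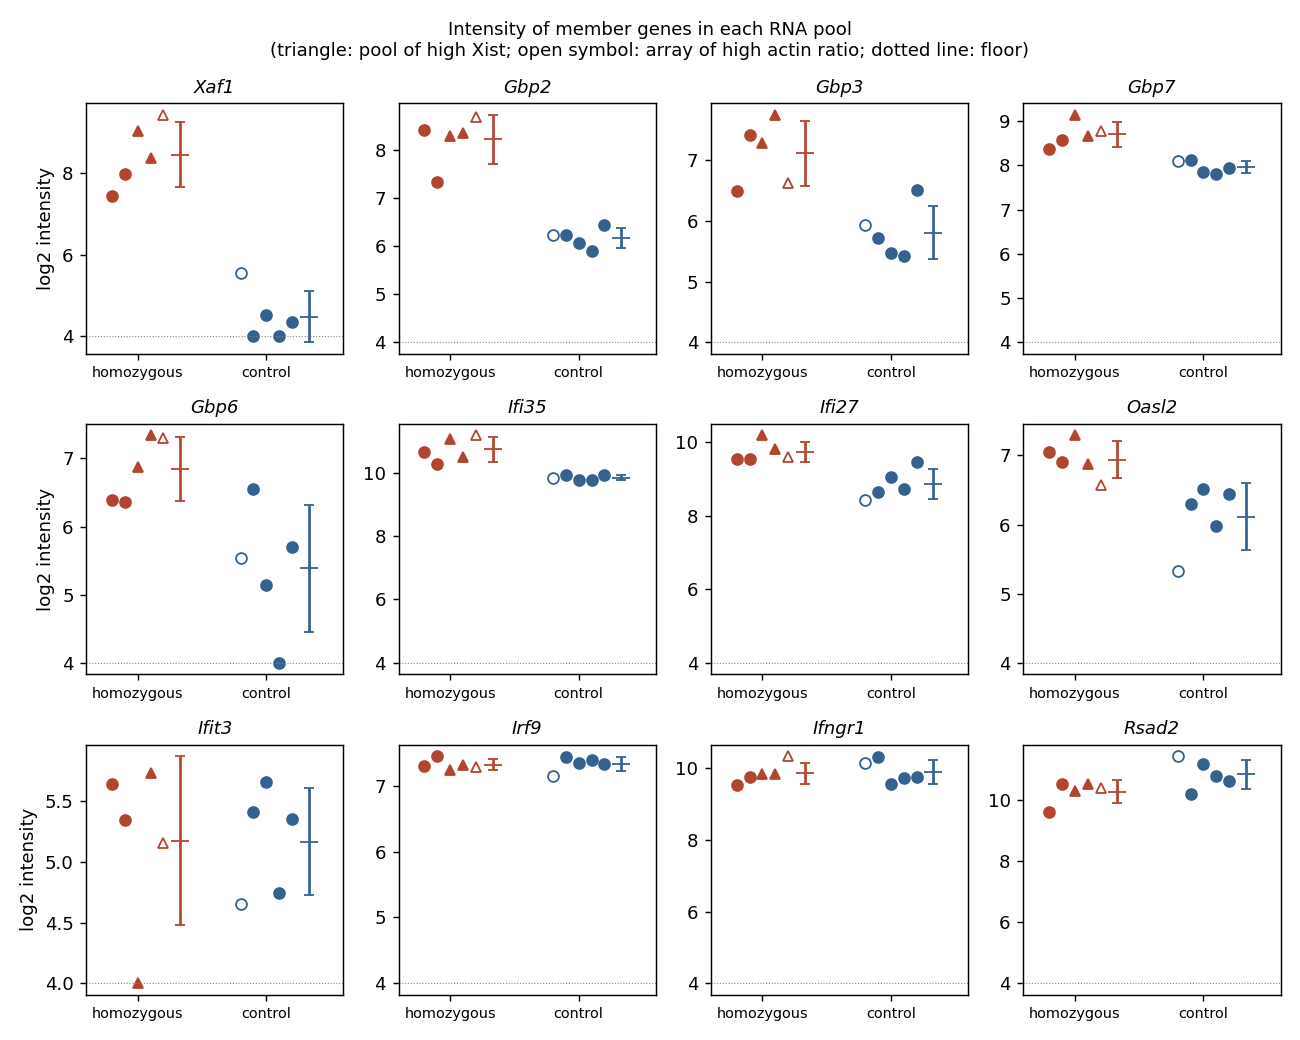
Log2 intensity (y axis) of 12 member genes in each pool, homozygous on the left and control on the right of each panel; triangles are pools of high Xist, open symbols arrays of high actin ratio, the dotted line the floor, and the cross bars give the mean and SD of 5 pools. Xaf1, Gbp2, Gbp7, Ifi35, Ifi27 and Oasl2 do not overlap between the groups, and Irf9 and Ifngr1 differ by -0.01 and -0.03.

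Xaf1 had the widest difference of the group. Its product, which interferon can induce, binds XIAP, a protein that blocks apoptosis. Its brightest probe set read 174, 254, 528, 331 and 696 in homozygous pools and 46.6, 5.00, 22.7, 15.0 and 20.3 in control pools. The lowest homozygous pool was well above the highest control pool, and 2 control arrays were under the floor, so the size of the difference depends on how dim values are handled. The log2 means were 8.46 ± 0.80 and 4.48 ± 0.63 (SD, n = 5 each), which differ by 3.98 ± 0.44 (SE), a 15.8-fold level. With a floor of 32 the difference was 3.35, and with 16 added to every value in place of a floor 3.38. The difference was 4.00 with both arrays of high actin ratio left out, and without the 3 pools of high Xist it was 3.24.

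The second Xaf1 probe set ran the other way. It read 33.4, 25.9, 46.5, 36.4 and 25.3 in homozygous pools and 33.7, 48.9, 64.4, 77.7 and 61.8 in control pools, a difference of -0.76 ± 0.26 (SE), and the groups overlapped. Xaf1 was the only member whose probe sets differed by more than 0.5 in opposite directions. Of the 20 members with several probe sets above the floor on 5 or more arrays, 7 had probe sets of opposite sign. The 3 homozygous pools of high Xist all read higher on the first Xaf1 probe set (331 to 696) than the other homozygous pools (174 and 254). Over the members, 15 of 48 (31.3%) separated upwards in this way within the homozygous group and 3 (6.25%) downwards, against 13.1% and 18.0% of all genes.

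**Figure D3:**
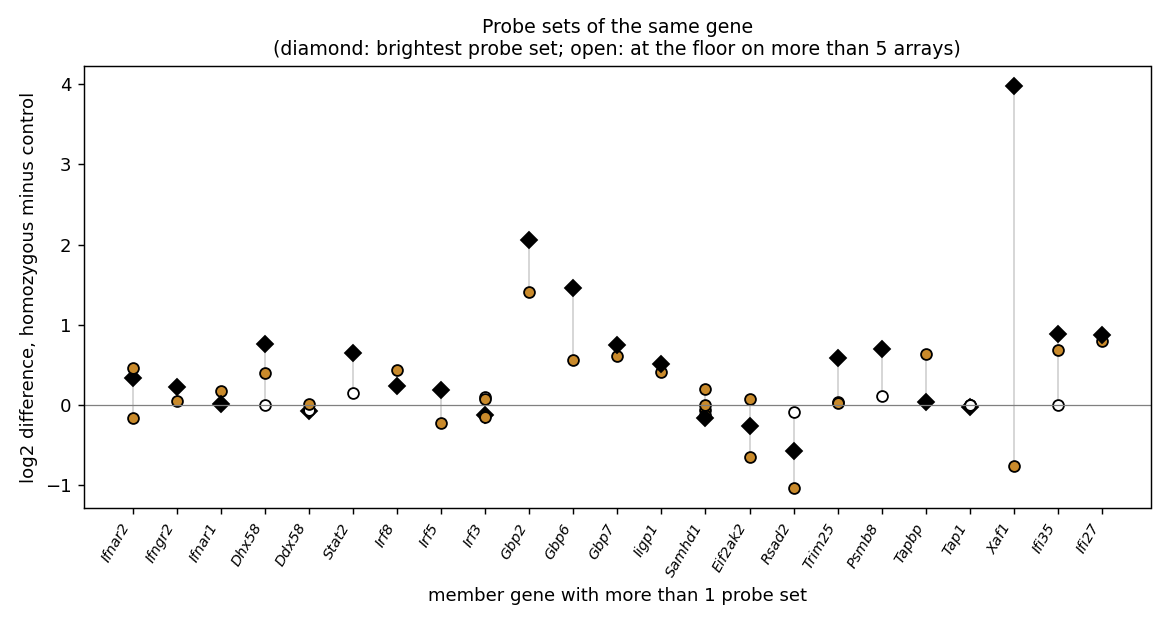
Log2 difference, homozygous minus control (y axis), of every probe set of the 23 member genes with more than 1 (x axis); diamonds are the brightest probe set of a gene and open symbols were at the floor on more than 5 arrays. The points of Xaf1 lie at 3.98 and -0.76, those of Gbp2 at 2.05 and 1.40, and those of Ifi27 at 0.87 and 0.79.

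Ifi35, Ifi27 and Oasl2 separated the groups by smaller amounts. Ifi35, which encodes a leucine zipper protein, read 1611, 1235, 2153, 1435 and 2312 in homozygous pools and 913, 977, 863, 878 and 975 in control pools (0.89 ± 0.17, SE). The control pools lay within a narrow range and all homozygous pools above it. A second probe set that also separated the groups differed by 0.69 ± 0.14 (SE). The name of the first ends in _s_at and that of the second in _x_at, the mark described for Gbp2. The third probe set, whose name ends in _at alone, was at the floor on every array, at 14.1 or less. Ifi27, a small mitochondrial protein gene, read 743, 746, 1171, 914 and 780 in homozygous pools, against 343, 406, 539, 425 and 711 in control pools (0.87 ± 0.21, SE). The name of this Ifi27 probe set ends in _s_at too. On the second Ifi27 probe set the groups overlapped, with a difference of 0.79 ± 0.43 (SE). Ifi27l2a, a neighbour and relative of Ifi27 that is no member, differed by 0.85 ± 0.24 (SE) and separated the groups. Oasl2, an oligoadenylate synthetase-like gene, read 133, 120, 156, 117 and 95.2 in homozygous pools and 40.1, 78.6, 91.2, 63.2 and 86.9 in control pools (0.83 ± 0.25, SE). None of these genes passed the threshold.

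Directions were mixed among the antiviral effector genes. Of the 14 measured, Oasl2 included, 8 were higher and 6 lower, with a median of 0.03. Ifit1, whose product binds viral RNA ends, read 16.4, 66.2, 39.5, 32.1 and 60.9 in homozygous pools and 34.1, 5.12, 26.3, 25.2 and 8.27 in control pools, with 2 control values under the floor (0.77 ± 0.40, SE). Its relatives Ifit2 and Ifit3 differed by -0.17 ± 0.10 (SE) and 0.01 ± 0.35 (SE). The membrane proteins that block viral entry differed by 0.61 ± 0.31 (Ifitm1), 0.20 ± 0.14 (Ifitm2) and 0.37 ± 0.23 (Ifitm3, all SE). Their highest value was in each case in homozygous pool 5, an array of high actin ratio and high Xist. With both arrays of high actin ratio left out they differed by 0.40, 0.16 and 0.23, and without the 3 pools of high Xist by 0.10, -0.01 and -0.04. Oasl1 differed by 0.54 ± 0.39 (SE), Isg20 by 0.04 ± 0.24 (SE) and Samhd1 by -0.17 ± 0.17 (SE). Oas1a differed by -0.22 ± 0.26 (SE), Eif2ak2, the RNA-activated kinase PKR, by -0.27 ± 0.34 (SE), and the tether gene Bst2 by -0.29 ± 0.36 (SE).

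Rsad2, which encodes viperin, was the member with the lowest difference. Its brightest probe set read 791, 1480, 1255, 1477 and 1335 in homozygous pools and 2788, 1188, 2299, 1753 and 1580 in control pools (-0.57 ± 0.26, SE), with control pool 2 inside the homozygous range. A second probe set read 219, 396, 334, 365 and 278 in homozygous pools and 902, 475, 683, 610 and 605 in control pools (-1.04 ± 0.21, SE), and was the only member probe set on which every homozygous pool lay below every control pool. The third was at the floor on most arrays.

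In the Isg15 modifier system, Usp18, which removes Isg15 from proteins, read 64.9, 69.8, 95.2, 96.5 and 50.1 in homozygous pools and 38.8, 66.7, 46.4, 50.8 and 35.7 in control pools (0.65 ± 0.23, SE). Trim25, a ubiquitin ligase that acts on Ddx58, read 1702, 2402, 3009, 2416 and 3782 in homozygous pools and 2238, 1581, 1606, 1470 and 1742 in control pools (0.59 ± 0.21, SE). Both genes overlapped between the groups. The other Trim25 probe sets differed by 0.04 and 0.03, and without the 3 pools of high Xist the first differed by 0.24.

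None of the 5 antigen processing genes passed or separated, and their median was 0.03. Psmb8, an immunoproteasome subunit, read 42.6, 24.1, 50.7, 38.5 and 6.2 in homozygous pools and 3.13, 34.5, 4.59, 7.89 and 20.0 in control pools (0.70 ± 0.35, SE), with 4 arrays under the floor. Its partner subunit Psmb9 read 40.5, 54.0, 66.5, 28.6 and 71.4 in homozygous pools, against 54.9, 29.1, 50.7, 58.3 and 54.5 in control pools (0.04 ± 0.29, SE). The peptide transporter gene Tap1 differed by -0.02 ± 0.23 (SE), its partner Tapbp by 0.03 ± 0.32 (SE; 0.63 on its second probe set) and the lysosomal reductase gene Ifi30 by -0.03 ± 0.20 (SE).

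**Figure D4:**
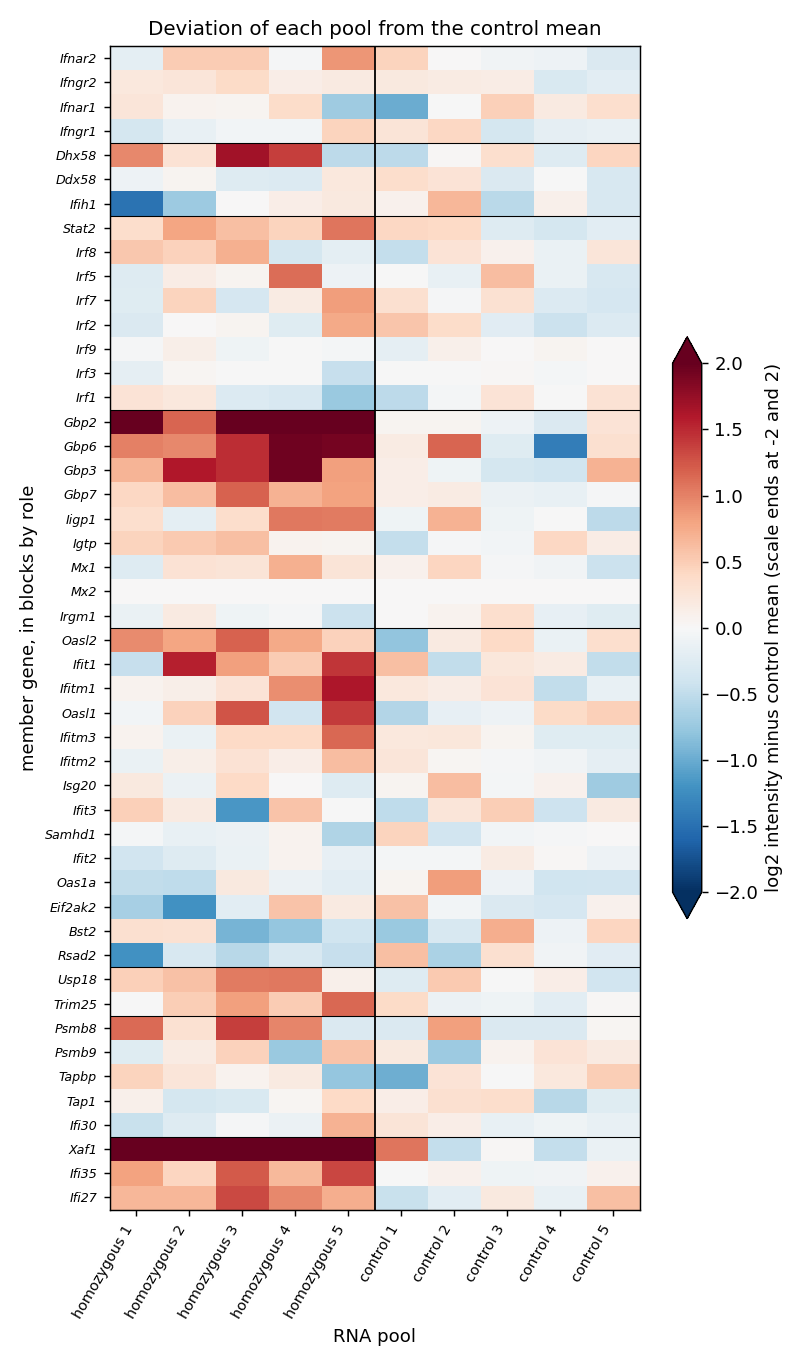
Log2 intensity minus the control mean (colour, cut at -2 and 2) of the 48 genes (rows, in blocks by role) in each pool (columns, homozygous left of the line, control right). The rows of Xaf1 and of the Gbp genes are red across the homozygous columns, and most rows of the receptor, transcription factor and antigen processing blocks show no such split.

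On chromosome 11, which carries Wnt9b, 7 members lie, and their median difference was 0.59, against 0.17 for the 41 members elsewhere. By gene starts in GRCm38.p6, Ifi35 lies 2.28 Mb from Wnt9b, Dhx58 3.03 Mb, Trim25 14.7 Mb and Xaf1 31.4 Mb, with Igtp, Irf1 and Irgm1 45.5 Mb to 54.9 Mb away. Xaf1 had the widest rise of the 1452 genes measured on this chromosome and rank 7 of all genes. The 5 measured genes on either side of Xaf1 ran from -0.88 (Smtnl2) to 0.49 (4930563E22Rik); none passed, and 4930563E22Rik alone separated upwards. Of 225 genes within 5 Mb of Wnt9b 3 passed (1.33%), as did 12 on the whole chromosome (0.826%) and 164 of the 16741 not placed on it (0.980%).

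**Figure D5:**
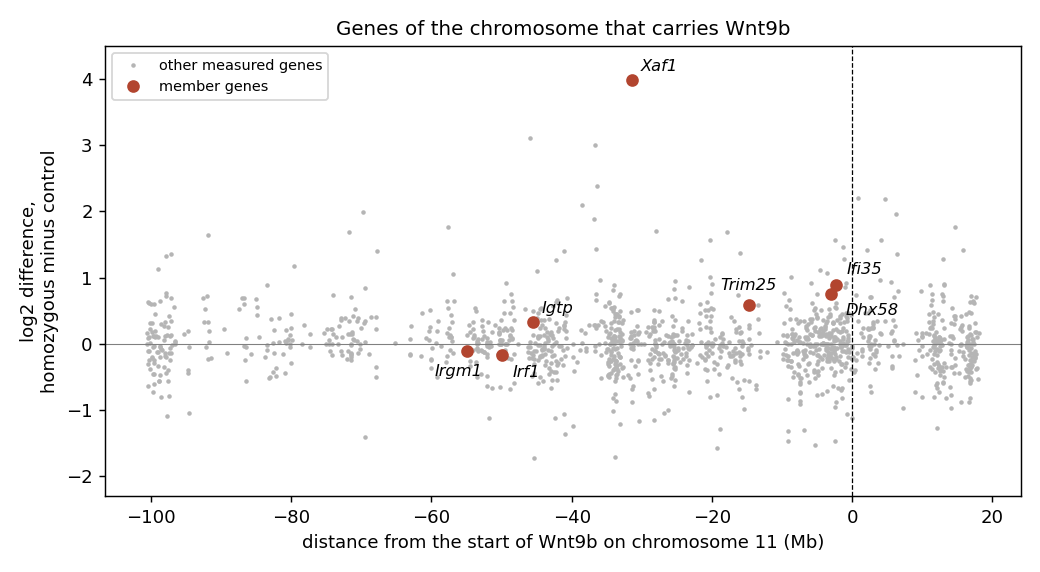
Log2 difference, homozygous minus control (y axis), of the genes measured on chromosome 11 against distance from the start of Wnt9b in Mb (x axis, dashed line at 0); member genes are red and labelled. Xaf1 lies above all other genes of the chromosome, and Ifi35 and Dhx58 lie 2.28 and 3.03 Mb from Wnt9b at 0.89 and 0.76.

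Of 93 further genes of the pathway, 73 were measured and none passed (limma), against 0.967% of all genes; their median was 0.06, and 41 were higher and 27 lower. Among 9 interferon genes measured, 6 were at the floor on more than 5 arrays. Ifnb1, the interferon beta gene, read 18.9, 42.7, 35.8, 27.3 and 68.9 in homozygous pools and 41.5, 30.5, 18.4, 42.7 and 24.1 in control pools (0.24 ± 0.37, SE), and Ifng was at the floor on all 10 arrays. Among genes at the floor on no more than 5 arrays, the widest differences were those of Nlrc5, an activator of MHC class I genes, Gbp8 and Trim30a. Ccl5, a chemokine gene at the floor on 6 arrays, differed by 1.01 ± 0.49 (SE). Nlrc5 read 102, 52.8, 103, 66.8 and 71.8 in homozygous pools and 28.3, 41.7, 43.1, 22.1 and 32.1 in control pools (1.24 ± 0.25, SE), without overlap. Gbp8 differed by 0.83 ± 0.28 (SE) and Trim30a by 0.77 ± 0.18 (SE), the second without overlap. B2m, at 0.36 ± 0.09 (SE), also separated upwards. Of the 10 antigen presentation genes measured in this list, Nlrc5 and B2m included, 4 were higher and 6 lower, with a median of -0.04. In all, 3 of the 73 genes separated upwards and 0 downwards, against 2.61% and 2.10% of all genes.

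Markers of other cells moved with the genotype beside these genes. The summed intensity of 13 macrophage markers was 6630 to 8574 in homozygous pools and 4377 to 5806 in control pools; 11 of the 13 were higher, Csf1r and Adgre1 passed the threshold, and C1qa was at the floor on every array. The 8 neuronal and chromaffin markers summed to 7713 to 20073 in homozygous pools and 688 to 4948 in control pools. All 8 were higher and 4 separated, but none passed. The 6 kidney tubule markers summed to 3205 to 6254 in homozygous pools and 8298 to 14788 in control pools, with 4 of the 6 lower past the threshold. Sums of the 6 lymphocyte markers (166 to 229 in homozygous pools, 138 to 202 in control pools), the 8 endothelial markers (4062 to 6329, against 5151 to 7126 in control pools) and the 6 erythroid markers (6796 to 15956, against 6090 to 8551 in control pools) overlapped, though 7 of the 8 endothelial markers were lower and all 6 erythroid markers higher. Kidney progenitor and early nephron markers summed to 5582 to 8270 in homozygous pools and 6795 to 15138 in control pools, with all 6 lower (median -1.10) and Lhx1 separated. The 5 gonad and adrenal markers summed to 762 to 4542 in homozygous pools and 336 to 3360 in control pools. Among them 4 were higher and Sox9 was lower (-0.72 ± 0.28, SE), and none passed. The widest difference was that of Nr5a1, at 2.55 ± 1.26 (SE), with 2 control pools under the floor. The lymphocyte marker Cd3e was at the floor on every array. The part of these markers in the differences of Xaf1 and the Gbp genes was not tested.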

How the data were processed

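Total RNA of 10 pools was labelled and hybridized to Affymetrix mouse arrays, per the labels and the series design text. Values are the authors' deposited intensities on a linear scale, 1 for each probe set in each pool; the trimmed mean (without the highest and lowest 2%) is 500 on all arrays. Probe summarization and background removal: not given in the sources used here. Scaling of this kind hides changes of total RNA, dim probe sets are less precise, and 10 arrays limit the precision.

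For this work 64 Affymetrix control probe sets were left out, intensities under 16 were set to 16 and log2 was taken. Names came from the platform annotation (34945 with 1 symbol, 932 with several, 9160 with none), and each gene was represented by its brightest probe set. The comparison used limma 3.58.1 under R 4.3.3 (lmFit, eBayes with trend, Benjamini-Hochberg), over all 18193 genes and over all 45037 probe sets, and was checked on simulated data. P-values measure the spread between the pools. Members, lists and alternatives were chosen with earlier results of these data known. Named were members past the threshold, the 2 widest differences per role among members at the floor on no more than 5 arrays, members on chromosome 11, members with opposed probe sets and the 3 widest of the wider pathway list under the same limit; the other members are given because they belong to the group. Alternatives concerned the floor, normalization, probe set, dim genes, variance model, array weights, title ending, replicate number, Xist and leaving out pools.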

Additional observations from a re-analysis of the deposited data

Results flagged for a closer look

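In 4 of 96 groups of 5 pools (4.17%) 1 pool stood far from the other 4, about the 1 in 20 that chance gives. For Ifnar1, homozygous pool 5 read 440, against 748 to 926 in the other homozygous pools. For Gbp2, homozygous pool 2 read 163, against 316 to 413 in the others. For Rsad2, homozygous pool 1 read 791, against 1255 to 1480 in the others. For Psmb9, control pool 2 read 29.1, against 50.7 to 58.3 in the other control pools.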

How the results depend on the processing

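With 2 member genes and 2 member probe sets past the threshold as reported, the number of genes was 3 with 16 added in place of a floor. It was 4 without the intensity trend, 7 with array weights, 7 with the title ending as a covariate and 5 with dim genes left out. In the same order 1.66%, 1.18%, 5.23%, 14.4% and 2.6% of all genes tested passed. Member probe sets numbered 3 with 16 added, 7 with array weights, 8 with the title ending and 4 with dim ones left out. Over all probe sets tested these numbers were 265, 734, 4624 and 349. With both arrays of high actin ratio left out, 1 member gene and 1 member probe set passed (over all, 23 and 87). The counts were 0 and 0 without the 3 pools of high Xist (over all, 28 and 118) or with the Xist level as a covariate (over all, 13 and 65). With the median-ranked probe set (of an even number, the dimmer of the middle 2) 0 member genes passed (over all, 41). Leaving out 1 pool at a time gave 0 to 3 member genes and 0 to 3 member probe sets, against 3 to 414 genes and 19 to 335 probe sets over all. With the replicate number as a block 0 member genes and 0 member probe sets passed. With each gene's group mean subtracted, same-numbered pools correlated at -0.55 to -0.17, so the numbers do not pair the pools. The count over all genes, 176, was 1 with the replicate block and 2626 with the title ending, which leaves homozygous pool 5 alone to carry the difference. The median of the members, 0.20, was 0.10 after quantile normalization, 0.086 with the Xist covariate and 0.085 with the median-ranked probe set, and 0.15 to 0.25 with 1 pool left out. The direction of Xaf1 turned with the median-ranked probe set (-0.76), which is its second probe set; with the mean of both it was 1.61. Of the described members that did not pass, Dhx58 (-0.52), Psmb8 (-0.29), Irf8 (-0.19) and Ifih1 (0.20) turned with the title ending, Irf1 (0.24 and 0.29) and Irgm1 (0.02 and 0.03) without the pools of high Xist and with the Xist covariate, and Psmb9, at 0.04, under several settings (lowest -0.19). Gene levels near the floor limit what dim members can show. The cause of the other shifts was not tested.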
